A study of Mus musculus with 32 samples.

Results

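The STAT5 and SOCS feedback axis was described here through 7 genes, Stat5a, Stat5b, Socs1, Socs2, Socs3, Cish and Ptpn2, taken by symbol from a gene table of 21899 rows. Each of the 7 had 1 row, and all 7 passed the filter on low values in every comparison. Because the title of the study points to STAT5A and SOCS3 in how light acts on inflamed astrocytes, these genes address what light and lipopolysaccharide did to that pathway. Primary mouse astrocytes, the star-shaped glia of the brain in culture, received lipopolysaccharide (LPS, from the outer membrane of bacteria) and light (photobiomodulation, PBM), LPS alone, light alone, or neither. These groups are called LPS+PBM, LPS, PBM and Control, each was sampled at 24 h and at 4 h, and each of the 8 groups had 4 libraries, 32 in all. No genotype or transgene is named, so all groups share only their origin in primary astrocyte culture. The LPS dose, the wavelength and dose of the light, and the strain and age of the mice are not stated in the sources used here. Whether replicates were separate cultures is not in the labels either, and p-values therefore reflect the variation among these libraries alone, part or all of which may be technical.

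STAT5A and STAT5B are closely related transcription factors that JAK kinases activate by phosphorylation below cytokine, growth hormone and prolactin receptors. Their targets include CIS (the product of Cish) and SOCS proteins, which bind the activated receptors or kinases and close a negative feedback loop. SOCS1 and SOCS3 also inhibit the kinases directly and limit interferon and interleukin-6 family signals, SOCS2 limits growth hormone signals, and PTPN2 is a phosphatase that removes phosphate from JAKs and STATs. STAT activation itself is a protein modification, and RNA levels do not measure it.

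The values are FPKM as the authors deposited them, that is, fragments scaled to transcript length and to the library's mapped fragments. The steps of the values put the depth at 130767 to 143853 fragments per library (median 137284), which is very low for a bulk library, and 10136 to 10777 genes were above 0 in a library. Each fragment weighed 6.95 to 7.65 FPKM for a transcript 1 kb long, so a value of 0 is given as listed at 0 and not as absence. All 10 astrocyte markers had rows, and their summed level was 129 to 435 FPKM over the libraries, with S100b listed at 0 in 24 of 32. All 17 microglia and macrophage markers had rows too, with sums of 395 to 928 FPKM, although P2ry12 was listed at 0 in 28 libraries and Aif1 in 24. The 8 endothelial and mural markers summed to 925 to 2107 FPKM with Cldn5 at 0 in all 32 libraries and Pecam1 in 29. Most of that sum was Acta2 (median 958 FPKM) and Tagln (median 548 FPKM), while the endothelial genes Cdh5 and Kdr had medians of 5.62 and 1.25 FPKM. The 5 fibroblast markers summed to 962 to 1953 FPKM. The oligodendrocyte list summed to 27.9 to 76.3 FPKM, the neuron list to 22.2 to 129 FPKM and the ependymal list to 0 to 17.7 FPKM. In such bulk cultures, fewer cells of a type and less RNA per cell cannot be told apart.

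All coordinates are on GRCm38 with GENCODE M21, and every member is annotated as protein-coding. Stat5a (ENSMUSG00000004043) lies on the plus strand at chr11:100859351-100885169 and Stat5b (ENSMUSG00000020919) beside it on the minus strand at chr11:100780731-100850724. Socs3 (ENSMUSG00000053113) lies at chr11:117966079-117970047, Socs1 (ENSMUSG00000038037) at chr16:10782240-10785536 and Socs2 (ENSMUSG00000020027) at chr10:95385362-95417180, all on the minus strand. Cish (ENSMUSG00000032578) lies on the plus strand at chr9:107296026-107302784. Stat5a and Stat5b share 608 stretches of 50 bases, 8.21% of those in Stat5a transcripts and 11.0% of those in Stat5b transcripts, so some reads cannot tell the paralogs apart, while no other pair of members shares any. Stat5a overlaps Stat3 on the other strand by 72 bases, and Cish overlaps the predicted genes Gm17040 and Gm17041, also on the other strand. The strand used in counting was not given in the sources used here, so such reads cannot be assigned.

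STAT dimers recognise the letters TTCNNNGAA, which read the same on both strands, so the start regions of the members were searched for them. RefSeq start windows of 300 bases (GRCm38.p6, 250 before and 50 after an annotated start) gave 7 windows for 5 of the 7 members, Stat5a, Stat5b, Socs1, Socs3 and Cish, and Socs2 and Ptpn2 had no entry. The motif stood in the windows of Socs3 and Cish, against 2726 of all 32851 windows (8.30%), and no match was found in the windows of Stat5a, Stat5b and Socs1. The 250 bases before the RefSeq start of Socs3 and 28 bases around that of Cish are printed here. Among the windows searched, only those of these genes held the motif, which is in capitals.
Socs3, chr11:117969367-117969616, minus strand: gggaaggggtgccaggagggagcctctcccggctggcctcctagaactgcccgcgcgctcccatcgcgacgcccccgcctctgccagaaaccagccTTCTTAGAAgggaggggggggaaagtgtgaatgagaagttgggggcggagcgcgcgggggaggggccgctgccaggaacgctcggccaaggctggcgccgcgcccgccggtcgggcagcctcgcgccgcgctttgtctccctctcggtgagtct
Cish, chr9:107296655-107296682, plus strand: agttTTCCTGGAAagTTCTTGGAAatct
The Socs3 match, TTCTTAGAA, lies 326 bases before the first base of the only coding transcript of Socs3 in GENCODE. It also lies in an intron of a longer transcript annotated as non-coding. The whole Socs3 window (chr11:117969317-117969616) lies before the first base of the coding transcript, 117969186. The bases next to that first base were therefore not searched. The paired Cish matches, TTCCTGGAA and TTCTTGGAA, lie 43 and 32 bases before the first base of a coding transcript of Cish, and inside the first exon of a longer one. A match is a description of letters and not a measured binding site.

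Stat5a RNA was high in LPS+PBM libraries at 4 h and low elsewhere, with LPS libraries at 4 h in between. At 4 h the LPS+PBM libraries held 19.9, 41.4, 41.2 and 49.5 FPKM, the LPS libraries 4.73, 39.6, 16.1 and 11.9 FPKM, the PBM libraries 0, 5.87, 0 and 0 FPKM, and the Control libraries 0, 0, 6.02 and 3.87 FPKM. Every LPS+PBM library stood above every PBM library, 3 of which were listed at 0, while LPS+PBM and LPS overlapped through the single LPS library at 39.6 FPKM. Stat5a rose in LPS+PBM over PBM by 4.52 ± 0.81 on the log2(FPKM + 1) scale (limma adjusted p = 0.00266, SE, n = 4 each). In inferred fragments this was 78 against 3, a ratio of 26.5 with a 95% exact interval of 8.73 to 131 that covers counting error only. For LPS against Control at 4 h the log2 difference was 2.64 ± 0.81 (means 18.1 ± 15.1 and 2.47 ± 2.99 FPKM, SD, n = 4 each) and did not pass (limma adjusted p = 0.120). For LPS+PBM against LPS it was 1.3 ± 0.81 (means 38.0 ± 12.6 and 18.1 ± 15.1 FPKM) and did not pass either (limma adjusted p = 0.756).

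At 24 h Stat5a was within a few fragments of 0 in every library. The LPS+PBM libraries held 0, 0, 9.68 and 5.83 FPKM, the LPS libraries 3.89, 4.00, 6.11 and 2.02 FPKM, the PBM libraries 1.94, 0, 0 and 0 FPKM, and the Control libraries 1.95, 3.74, 4.01 and 4.09 FPKM. These values are 0 to 5 inferred fragments per library. Within LPS+PBM, Stat5a fell by 3.67 ± 0.79 on the log2 scale at 24 h relative to 4 h (3.88 ± 4.745 FPKM at 24 h and 38.0 ± 12.6 FPKM at 4 h, limma adjusted p = 0.00541), and the libraries of the 2 times did not overlap. The call ended with 0.1 FPKM added in place of 1 (difference -5.37, adjusted p = 0.0611) and without the 6 libraries listed last in the table, which include 1 of each of these groups (difference -3.09, adjusted p = 0.101). In PBM against Control at 24 h every PBM library was below every Control library, but this was 1 inferred fragment against 7, a ratio of 0.138 with an interval of 0.00305 to 1.07 (log2 difference -1.73 ± 0.76, limma adjusted p = 0.815).

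**Figure D1:**
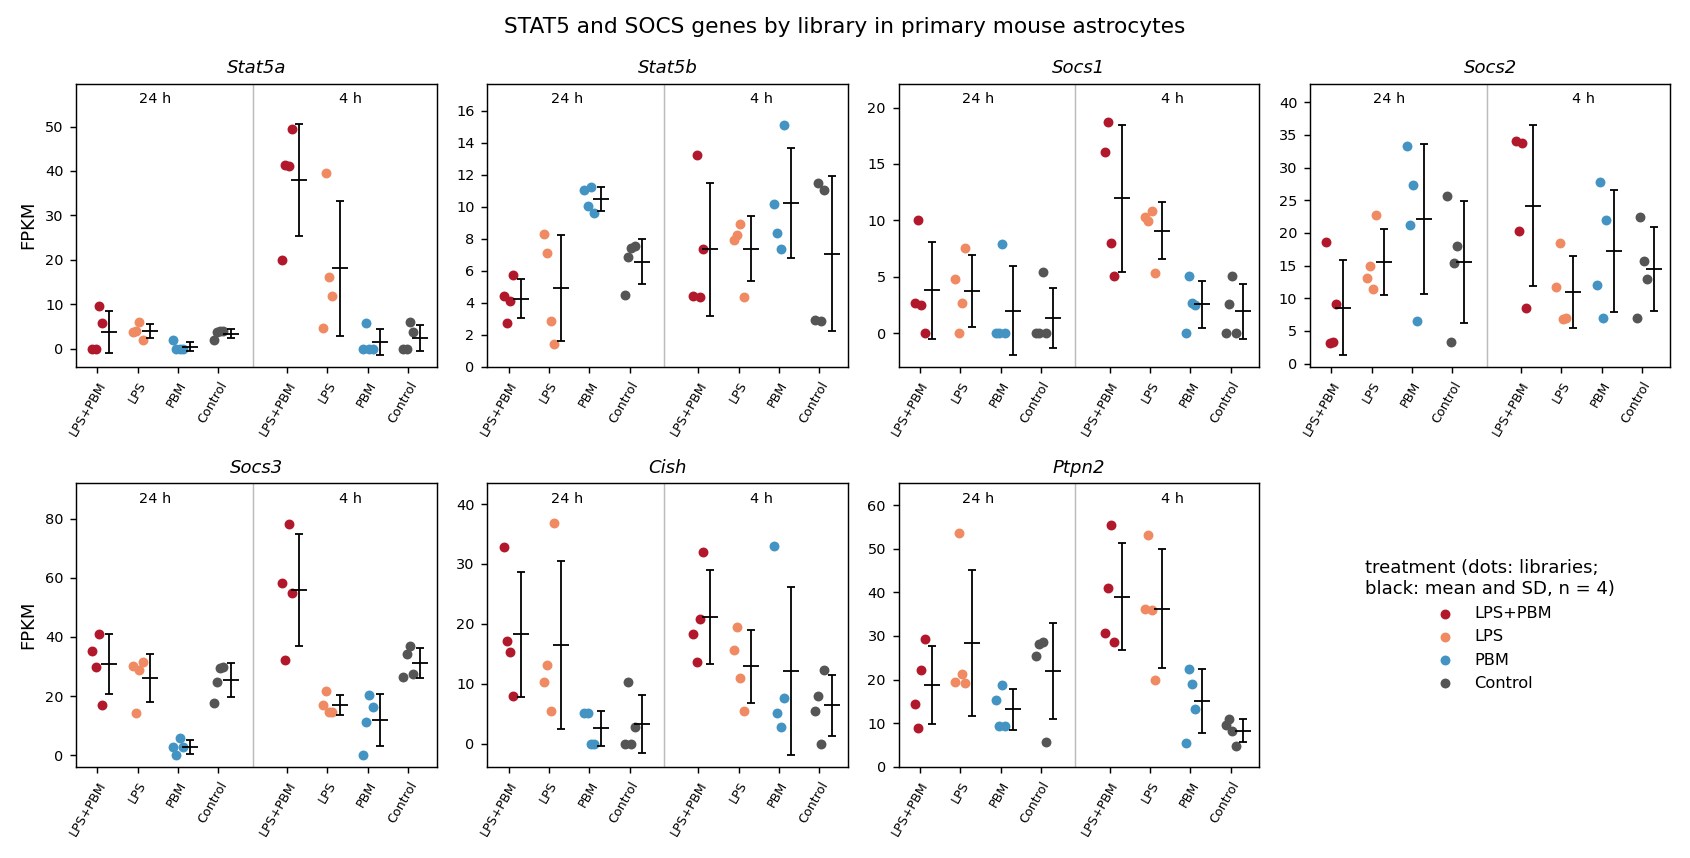
FPKM of the 7 genes in each library (dots), with the mean and SD of each group of 4 in black, at 24 h on the left and 4 h on the right of each panel. Stat5a stands high in LPS+PBM at 4 h (19.9 to 49.5 FPKM), and Socs3 is lowest in PBM at 24 h (0 to 5.74 FPKM).

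Stat5b, the paralog that carries most growth hormone signals in liver, did not share the Stat5a pattern. At 4 h it held 4.41, 13.2, 4.38 and 7.35 FPKM in LPS+PBM, 7.96, 8.24, 8.91 and 4.39 FPKM in LPS, 10.2, 8.36, 7.34 and 15.1 FPKM in PBM, and 2.95, 11.5, 2.86 and 11.0 FPKM in Control. All groups overlapped at 4 h. At 24 h it held 4.46, 2.75, 4.14 and 5.74 FPKM in LPS+PBM, 8.31, 7.13, 2.90 and 1.44 FPKM in LPS, 11.1, 10.1, 11.2 and 9.65 FPKM in PBM, and 4.49, 6.90, 7.41 and 7.55 FPKM in Control. Every PBM library at 24 h was above every Control library (log2 difference 0.62 ± 0.52, limma adjusted p = 0.905) and above every LPS+PBM library (LPS+PBM minus PBM -1.15 ± 0.52, limma adjusted p = 0.347), and neither difference passed. With the FPKM of the paralogs summed, LPS+PBM over PBM at 4 h gave a log2 difference of 1.84 ± 0.48 (limma adjusted p = 0.0455) and LPS+PBM at 24 h against 4 h gave -2.49 ± 0.49 (limma adjusted p = 0.00179). PBM against Control at 24 h gave 0.14 ± 0.51 for the sum, opposite in sign to Stat5a alone.

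Socs3, the feedback inhibitor that binds the interleukin-6 family receptor and its JAKs, was highest in LPS+PBM at 4 h and lowest in PBM at 24 h. At 24 h it held 35.4, 30.0, 41.0 and 17.1 FPKM in LPS+PBM, 30.2, 14.1, 28.8 and 31.4 FPKM in LPS, 2.74, 0, 5.74 and 2.73 FPKM in PBM, and 17.8, 24.7, 29.4 and 30.0 FPKM in Control. The PBM libraries stood apart below all 12 others of that time, while LPS+PBM, LPS and Control overlapped. Socs3 fell by 3.06 ± 0.50 on the log2 scale in PBM relative to Control (2.80 ± 2.35 and 25.5 ± 5.62 FPKM, SD, n = 4 each, limma adjusted p = 0.0104). This was 4 inferred fragments against 35, a ratio of 0.110 with an interval of 0.0284 to 0.308. The call ended without Control replicate 4 (adjusted p = 0.0531), with the 8 libraries fitted alone (adjusted p = 0.214), and with 0.1 FPKM added in place of 1 (adjusted p = 0.0865). Socs3 rose in LPS+PBM relative to PBM by 3.29 ± 0.50 (limma adjusted p = 0.00054), and this passed in every alternative run, with adjusted p of 0.000194 to 0.0147. The comparisons share the same PBM libraries. LPS against Control (0.00 ± 0.50) and LPS+PBM against LPS (0.23 ± 0.50) gave no call at 24 h (limma adjusted p = 1.00 in each).

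At 4 h the Socs3 groups were ordered LPS+PBM, Control, LPS and PBM. The LPS+PBM libraries held 58.4, 32.1, 78.2 and 55.0 FPKM, the LPS libraries 16.9, 21.8, 14.7 and 14.5 FPKM, the PBM libraries 0, 11.1, 20.4 and 16.4 FPKM, and the Control libraries 26.3, 34.2, 36.9 and 27.4 FPKM. All LPS and all PBM libraries were below all Control libraries, and all LPS+PBM libraries were above all LPS and all PBM libraries, while LPS+PBM and Control overlapped. Socs3 rose in LPS+PBM relative to PBM by 2.73 ± 0.66 (55.9 ± 18.9 and 12.0 ± 8.83 FPKM, limma adjusted p = 0.0291). The call ended without LPS+PBM replicate 1, 3 or 4 (adjusted p = 0.0718, 0.0831 and 0.0684), with the 8 libraries fitted alone (0.122) and with 0.1 FPKM added (0.119). Without PBM replicate 1, the library listed at 0, the difference was 1.72 (adjusted p = 0.00896). The other 3 differences did not pass over all genes: LPS+PBM minus LPS was 1.61 ± 0.66 (55.9 ± 18.9 and 17.0 ± 3.38 FPKM, limma adjusted p = 0.572), LPS minus Control -0.84 ± 0.66 (adjusted p = 0.660) and PBM minus Control -1.96 ± 0.66 (adjusted p = 0.760), or -0.95 without PBM replicate 1. Each of these 3 differences had the smallest value that a two-sided exact permutation test of 4 against 4 libraries allows, p = 0.0286, unadjusted among 84 such tests on the 7 genes. Socs3 at 24 h against 4 h passed in no treatment. In PBM it had 2.80 ± 2.35 FPKM at 24 h and 12.0 ± 8.83 FPKM at 4 h (log2 difference -1.39 ± 0.61, limma adjusted p = 0.447), and the difference was -2.40 without PBM replicate 1 of 4 h (adjusted p = 0.00347) and -0.85 without PBM replicate 2 of 24 h (adjusted p = 0.741), which are both listed at 0.

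**Figure D2:**
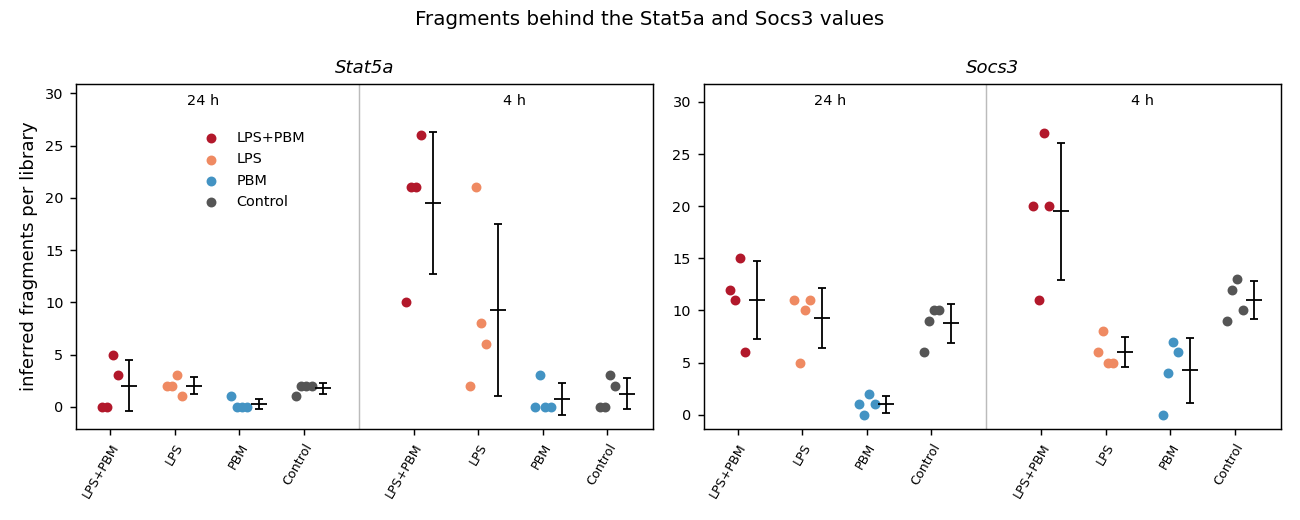
Fragments per library inferred from the FPKM steps for Stat5a and Socs3 (dots), with the mean and SD of each group of 4 in black, at 24 h on the left and 4 h on the right. Socs3 sums to 4 fragments over the PBM libraries and 35 over the Control libraries at 24 h, and Stat5a to 78 over the LPS+PBM libraries and 3 over the PBM libraries at 4 h.

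The Socs3 values fall on whole fragments of its annotated transcript in all 30 libraries above 0, within 0.1 of a fragment, so its fragments are closely known. For Stat5a this held in 59.1% of 22 values above 0, and its fragments are approximate. Summed over 4 libraries at 24 h, Socs3 had 44 fragments in LPS+PBM, 37 in LPS, 4 in PBM and 35 in Control. At 4 h it had 78 in LPS+PBM, 24 in LPS, 17 in PBM and 44 in Control.

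The light difference of Socs3 was positive with LPS and negative without it at both times. At 24 h the one with LPS was small beside its SE (log2 0.23 ± 0.50), and those libraries overlapped. At 4 h the light difference was 38.9 FPKM with LPS (LPS+PBM minus LPS) and -19.2 FPKM without (PBM minus Control), and at 24 h it was 4.73 FPKM with LPS and -22.7 FPKM without. An exact permutation of the light labels within each LPS state gave p = 0.000408 at 4 h, the smallest of 4900 relabellings, and p = 0.00857 at 24 h, both two-sided, unadjusted and among 14 such tests on the 7 genes. This permutation test was chosen after the data were seen, and its null is no light effect in either LPS state. In the fit over all genes the interaction was 3.58 ± 0.93 at 4 h (limma adjusted p = 0.352) and 3.29 ± 0.71 at 24 h (limma adjusted p = 0.226), and neither passed. For Stat5a at 4 h the light difference was 19.9 FPKM with LPS and -1.005 FPKM without (exact permutation p = 0.0571, limma interaction 1.88 ± 1.15, adjusted p = 0.816). For Stat5b at 24 h it was -0.67 FPKM with LPS and 3.92 FPKM without (exact permutation p = 0.0486, unadjusted).

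Marker sums moved with several of the called comparisons. In LPS+PBM against PBM at 24 h, where Socs3 rose, the astrocyte list summed to 129 to 190 FPKM in LPS+PBM and 213 to 315 FPKM in PBM, and the microglia list to 395 to 646 FPKM in LPS+PBM and 686 to 928 FPKM in PBM. The endothelial and mural list, mostly Acta2 and Tagln, summed to 925 to 1252 FPKM in LPS+PBM and 1415 to 1823 FPKM in PBM. The fibroblast list summed to 1421 to 1681 FPKM in LPS+PBM and 1776 to 1953 FPKM in PBM. None of these 4 ranges overlapped. In LPS+PBM against PBM at 4 h, where Stat5a and Socs3 rose, the astrocyte list summed to 276 to 352 FPKM in LPS+PBM and 171 to 263 FPKM in PBM, and the fibroblast list to 962 to 1116 FPKM in LPS+PBM and 1282 to 1423 FPKM in PBM, again without overlap. The microglia list (546 to 706 FPKM in LPS+PBM and 548 to 835 FPKM in PBM) and the endothelial and mural list (1417 to 1920 FPKM in LPS+PBM and 1583 to 2067 FPKM in PBM) overlapped there. Within LPS+PBM, where Stat5a fell at 24 h, the fibroblast ranges at 24 h and at 4 h given above did not overlap, the sum being higher at 24 h. The ranges of the astrocyte list and of the endothelial and mural list did not overlap either. In LPS against Control at 4 h, where Ptpn2 rose, the microglia list summed to 420 to 621 FPKM in LPS and 741 to 848 FPKM in Control without overlap, with P2ry12 and Aif1 at 0 in all 16 libraries of that time, and the astrocyte list to 168 to 247 FPKM in LPS and 210 to 371 FPKM in Control. In PBM against Control at 24 h, where Socs3 fell, the ranges met at their ends for the astrocyte list (213 to 315 FPKM in PBM and 313 to 435 FPKM in Control) and the fibroblast list (1776 to 1953 FPKM in PBM and 1640 to 1777 FPKM in Control), and the microglia list overlapped (686 to 928 FPKM in PBM and 885 to 897 FPKM in Control). The part of these markers in the Stat5a, Socs3 and Ptpn2 differences was not tested. Of the 5 lymphoid markers 4 were at 0 in all libraries, and Cd79a was at 0 in 31 of 32, with 5.25 FPKM in 1 Control library at 24 h.

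Cish, the gene of a feedback inhibitor that STAT5 induces, had its highest group means where LPS was given, and no difference passed. At 24 h it held 32.8, 17.1, 15.3 and 7.94 FPKM in LPS+PBM, 10.2, 13.2, 5.36 and 36.9 FPKM in LPS, 5.10, 5.12, 0 and 0 FPKM in PBM, and 0, 10.2, 0 and 2.79 FPKM in Control. All LPS+PBM libraries were above all PBM libraries (log2 difference 2.80 ± 0.87, limma adjusted p = 0.107), and LPS and Control overlapped (2.45 ± 0.87, limma adjusted p = 0.182). At 4 h it held 18.3, 13.6, 20.8 and 32.0 FPKM in LPS+PBM, 15.7, 19.5, 11.0 and 5.40 FPKM in LPS, 33.0, 5.15, 2.71 and 7.61 FPKM in PBM, and 5.45, 7.86, 0 and 12.2 FPKM in Control. A single PBM library at 33.0 FPKM lay above all others of its group, and all groups overlapped except that every LPS+PBM library was above every Control library, a pair that was not tested. None of the 4 differences at 4 h passed (limma adjusted p of 0.487 to 0.972). The motif pair at the Cish start shown above is held by a gene of low level in Control, 3.25 ± 4.82 FPKM at 24 h and 6.39 ± 5.10 FPKM at 4 h.

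Socs1, the inhibitor that blocks JAKs below interferon receptors, had few fragments throughout. At 4 h it held 16.1, 18.7, 7.96 and 5.04 FPKM in LPS+PBM, 10.3, 9.98, 10.8 and 5.32 FPKM in LPS, 0, 5.07, 2.67 and 2.50 FPKM in PBM, and 0, 2.61, 5.09 and 0 FPKM in Control. Every LPS library was above every Control library, 14 inferred fragments against 3, a ratio of 4.68 with an interval of 1.31 to 25.4, but the difference did not pass (log2 2.18 ± 0.73, limma adjusted p = 0.162). LPS+PBM and PBM overlapped by the library at 5.04 FPKM (log2 1.97 ± 0.73, limma adjusted p = 0.202). At 24 h Socs1 ranged from 0 to 10.0 FPKM in LPS+PBM, 0 to 7.52 FPKM in LPS, 0 to 7.89 FPKM in PBM and 0 to 5.38 FPKM in Control, with all groups overlapping.

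Socs2, the inhibitor of growth hormone signalling, varied as much within groups as between them. At 24 h it held 18.6, 3.13, 3.24 and 9.12 FPKM in LPS+PBM, 13.0, 15.0, 11.5 and 22.7 FPKM in LPS, 33.3, 21.2, 27.3 and 6.50 FPKM in PBM, and 25.7, 3.25, 15.4 and 18.0 FPKM in Control. At 4 h it ranged from 8.48 to 34.1 FPKM in LPS+PBM, 6.76 to 18.4 FPKM in LPS, 7.04 to 27.8 FPKM in PBM and 6.93 to 22.4 FPKM in Control. All groups overlapped at both times. Its LPS+PBM minus PBM difference at 24 h was -1.39 ± 0.63 (limma adjusted p = 0.355), and LPS+PBM at 24 h against 4 h gave -1.54 ± 0.59 (limma adjusted p = 0.192).

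Ptpn2, the phosphatase that acts on JAK1, JAK3 and several STATs, rose with LPS at 4 h. The gene (ENSMUSG00000024539) lies on the minus strand of chromosome 18, from 67665511 to 67724595. It held 30.7, 41.1, 55.5 and 28.7 FPKM in LPS+PBM, 36.3, 53.2, 36.0 and 19.8 FPKM in LPS, 5.51, 22.5, 19.1 and 13.3 FPKM in PBM, and 9.52, 10.9, 8.14 and 4.66 FPKM in Control. LPS libraries were all above Control libraries, and LPS+PBM libraries all above PBM libraries. The LPS minus Control difference was 1.98 ± 0.43 (36.3 ± 13.6 and 8.31 ± 2.68 FPKM, SD, n = 4 each, limma adjusted p = 0.0134). In inferred fragments this was 30 against 7. These are approximate, as only 31.2% of the 32 Ptpn2 values lay within 0.1 of a whole fragment. LPS+PBM minus PBM was 1.42 ± 0.43 and did not pass (limma adjusted p = 0.0963). The call ended without LPS replicate 2 (adjusted p = 0.0582), without Control replicate 4 (0.0544) and without the 6 last-listed libraries (0.0560). At 24 h it held 14.4, 8.88, 22.3 and 29.2 FPKM in LPS+PBM, 19.6, 53.5, 21.3 and 19.3 FPKM in LPS, 15.3, 9.30, 18.7 and 9.32 FPKM in PBM, and 25.3, 28.2, 28.7 and 5.73 FPKM in Control. At 24 h every LPS library was above every PBM library, a pair that was not tested, the other groups overlapped, and no tested difference passed. The Control libraries averaged 22.0 ± 10.9 FPKM at 24 h and 8.31 ± 2.68 FPKM at 4 h (log2 difference 1.14 ± 0.48, limma adjusted p = 0.382).

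**Figure D3:**
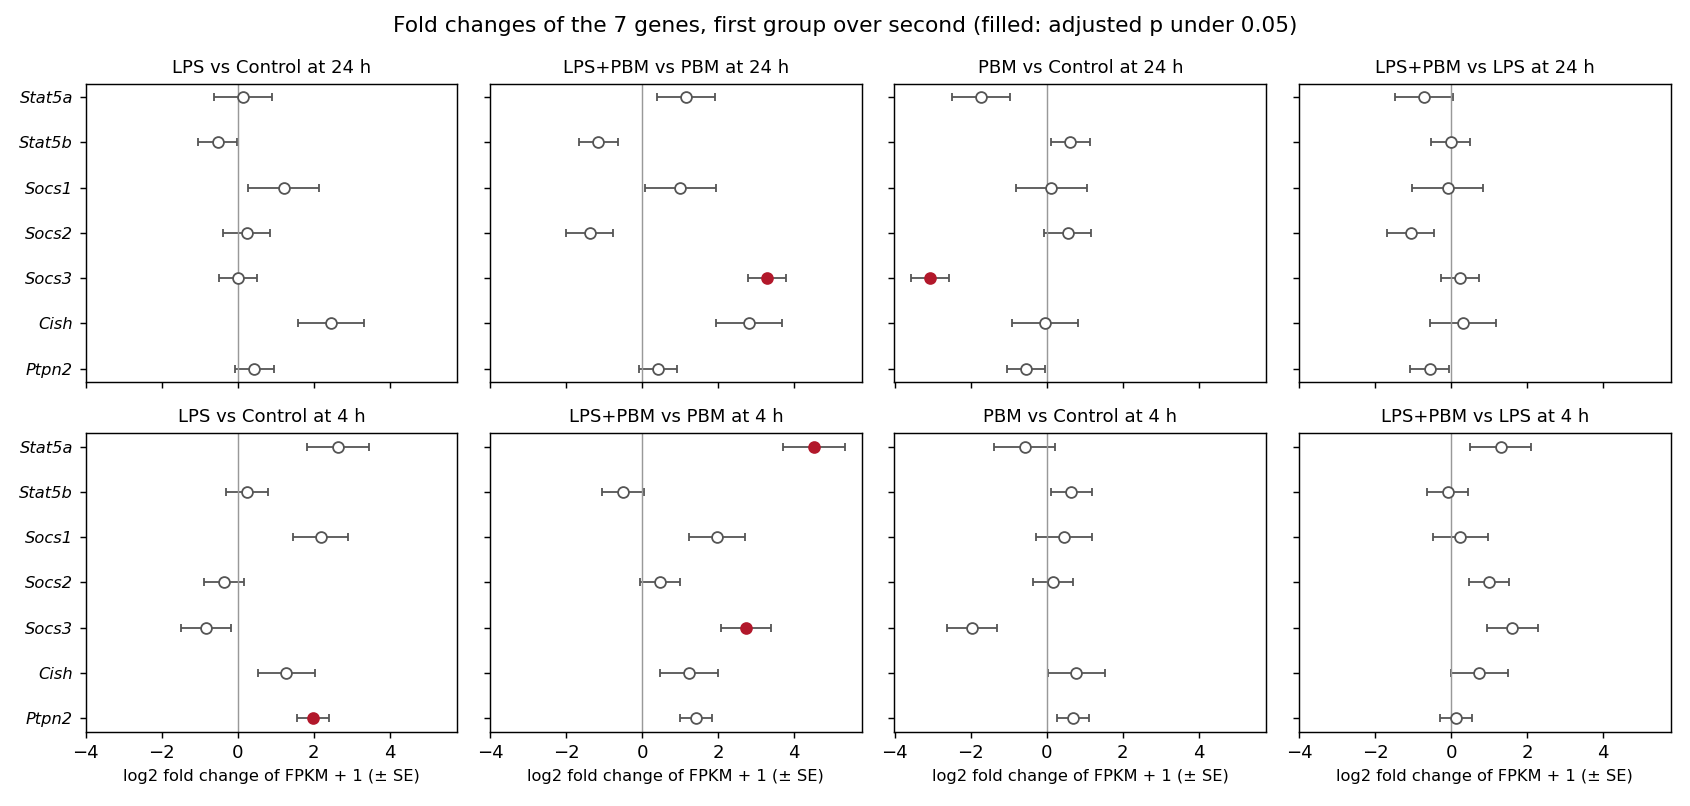
Log2 fold changes of FPKM + 1 with their SE for the 7 genes in the 8 comparisons within a time, 24 h above and 4 h below; filled points had a limma adjusted p under 0.05. Of the points shown, 5 are filled: Socs3 in 3 panels, and Stat5a and Ptpn2 in 1 each.

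Over the 15 comparisons the 7 genes gave 6 calls in 105 tests, beside 1.17% of all gene tests. Of the 105 tests, 28 had an unadjusted p under 0.05. Over all tested genes the number with such a p ran from 683 of 13278 (LPS+PBM against LPS at 24 h) to 1967 of 13937 (24 h against 4 h in LPS+PBM). The comparisons share libraries, so these tests are not independent. At 24 h none of the 7 was called in LPS against Control, where 2.56% of all tested genes were, 1 in PBM against Control (0.113% of all), none in LPS+PBM against LPS (0.00753%, 1 gene) and 1 in LPS+PBM against PBM (2.70%). At 4 h the counts were 1 in LPS against Control (2.23% of all), none in PBM against Control (0.0453%), none in LPS+PBM against LPS and 2 in LPS+PBM against PBM (2.63%). In LPS+PBM against LPS at 4 h no gene of 13247 was called (0%), although 997 had an unadjusted p under 0.05 and limma-voom on inferred fragments called 7. The interaction of LPS and light called none of the 7 at 24 h (0.0527% of all) or at 4 h (0.0302%). Between 24 h and 4 h, 1 of the 7 was called in LPS+PBM (3.01% of all) and none in LPS (1.33%), PBM (1.05%) or Control (1.11%). None was called for the difference in LPS effect between the times (0.617%). Where limma called none of the 7, 0 to 2 of them had an unadjusted p under 0.05, and limma-voom called none of them either.

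Groups without overlap were counted in the same way. At 24 h the 7 genes gave 0 such cases in LPS against Control (7.94% of all tested genes), 3 in PBM against Control (2.95%), 0 in LPS+PBM against LPS (2.24%) and 3 in LPS+PBM against PBM (8.01%). The 3 in PBM against Control were Stat5b above, and Stat5a and Socs3 below. At 4 h there were 3 in LPS against Control (7.28%), 1 in PBM against Control (2.54%), 1 in LPS+PBM against LPS (3.83%) and 3 in LPS+PBM against PBM (8.25%). Between the times there was 1 in LPS+PBM (7.86%) and 0 in LPS (6.27%), PBM (5.28%) and Control (5.28%). The median log2 difference of the 7 genes in LPS+PBM against LPS was -0.08 at 24 h, with 2 of 7 above 0, and 0.74 at 4 h, with 6 of 7 above 0. Over all tested genes 47.4% were above 0 at 24 h and 45.5% at 4 h, with medians of 0.00 and -0.02. In LPS+PBM at 24 h against 4 h the median of the 7 genes was -1.10, with 0 of 7 above 0, beside 52.4% of all genes above 0. Over the other 12 comparisons 2 to 6 of the 7 were above 0.

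Of the 13 ligand genes that act through STAT5, 4 or 5 passed the filter on low values in a comparison, and 3 were called in at least 1 comparison (5 calls in 70 tests, 7.14%, against 1.17% of all gene tests over the 15 comparisons). Tslp, an epithelial and stromal cytokine, had 12.4 to 39.5 FPKM in LPS libraries at 4 h, while each of the 4 Control libraries was listed at 0 (limma adjusted p = 0.00315), and at 24 h at 6.18 to 18.6 FPKM in LPS+PBM and at 0 in all PBM libraries (adjusted p = 0.00623). Il15, a cytokine that signals through IL-15 and IL-2 receptor chains, averaged 34.8 ± 7.34 FPKM in LPS+PBM and 0.93 ± 1.85 FPKM in PBM at 4 h (limma adjusted p = 0.00174), and was listed at 0 in all LPS+PBM libraries at 24 h (24 h against 4 h, adjusted p = 0.00235). Csf2, the gene of GM-CSF, held 8.77 to 18.6 FPKM in LPS+PBM at 4 h and 0 in all PBM libraries (limma adjusted p = 0.0340). Of 17 receptor genes, 11 were tested and gave 1 call in 165 tests (0.606%, against 1.17% for all genes), Il15ra, with 31.3 ± 8.42 FPKM in LPS and 2.39 ± 2.76 FPKM in Control at 4 h (limma adjusted p = 0.0109).

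Among the JAK kinases and other STATs, 8 of 9 genes were tested, with 11 calls upward and 1 downward in 120 tests (10.0%, against 1.17% for all genes). Jak2, the kinase of the GM-CSF, growth hormone and prolactin receptors, rose at 24 h in LPS over Control (107 ± 13.8 and 24.2 ± 4.48 FPKM, log2 2.11 ± 0.23, limma adjusted p = 9.96e-06) and in LPS+PBM over PBM (109 ± 11.5 and 22.3 ± 5.46 FPKM). At 4 h it rose in LPS+PBM over PBM (85.5 ± 13.1 and 15.7 ± 6.52 FPKM, log2 2.44 ± 0.32, limma adjusted p = 0.000104). Stat2, a transcription factor below interferon receptors, rose at 4 h in LPS over Control (63.2 ± 3.57 and 15.7 ± 3.56 FPKM, limma adjusted p = 0.000172). The Stat2 difference did not pass at 24 h (51.7 ± 13.3 and 55.9 ± 11.2 FPKM, limma adjusted p = 0.88). Stat2 was also called higher at 24 h than at 4 h in Control, without LPS (limma adjusted p = 3.22e-05). Stat3, which overlaps Stat5a, held 54.7 ± 22.2 FPKM in LPS and 37.0 ± 10.5 FPKM in Control at 4 h and did not pass (adjusted p = 0.504).

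The 16 other JAK-STAT inhibitors gave 3 calls upward and 2 downward in 240 tests (2.08%, against 1.17% for all genes). Usp18, which restrains the interferon receptor, rose at 4 h in LPS over Control (190 ± 24.0 and 40.0 ± 11.4 FPKM, log2 2.25 ± 0.26, limma adjusted p = 1.35e-05). Its difference did not pass at 24 h (167 ± 37.7 and 125 ± 32.9 FPKM, limma adjusted p = 0.526). Usp18 was also called higher at 24 h than at 4 h in Control, without LPS (limma adjusted p = 0.000393). Socs5 fell in LPS at 24 h relative to 4 h (22.5 ± 9.49 and 55.4 ± 13.8 FPKM, limma adjusted p = 0.0191). The 4 ubiquitin ligase partners of the SOCS box gave 0 limma calls in 60 tests, 5 of which had an unadjusted p under 0.05. The 10 STAT5 target genes gave 5 calls upward and 3 downward in 150 tests (5.33%, against 1.17% for all genes). All were calls of Pim1 or of cyclin genes. Of these, the kinase gene Pim1 rose at 4 h in LPS+PBM over PBM (50.2 ± 17.5 and 5.76 ± 9.12 FPKM, log2 3.94 ± 0.77, limma adjusted p = 0.00598). The cyclin gene Ccnd2 fell at 24 h in LPS relative to Control (256 ± 33.9 and 472 ± 55.6 FPKM, log2 -0.89 ± 0.14, limma adjusted p = 0.000549). It was also called higher at 24 h than at 4 h in Control (limma adjusted p = 0.025) and in PBM (limma adjusted p = 0.00162), where no LPS was given. Limma called none of these genes of the pathway in PBM against Control, where 4 had an unadjusted p under 0.05 at 24 h and 8 at 4 h, or in LPS+PBM against LPS, where 3 had one at 24 h and 7 at 4 h.

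For each member the 3 genes with the most similar pattern over the 8 group means of log2(FPKM + 1) were taken from 8577 named genes, as a description that needs no test. Socs3 was most like Junb (Pearson r = 0.974), Zfp36 (0.969) and Etv6 (0.967), which encode a subunit of the AP-1 transcription factor, a protein that promotes decay of cytokine mRNAs, and an ETS family repressor. At 24 h Junb averaged 153 ± 36.9 FPKM in LPS+PBM, 171 ± 38.8 FPKM in LPS, 35.5 ± 7.98 FPKM in PBM and 148 ± 25.6 FPKM in Control, and it fell by 2.04 ± 0.23 in PBM relative to Control (limma adjusted p = 9.04e-05). Zfp36 averaged 32.1 ± 7.38 FPKM in PBM and 78.4 ± 5.11 FPKM in Control at 24 h (limma adjusted p = 0.0691). Stat5a was most like B4galt5 (r = 0.968), Gna13 (0.965) and Rdh10 (0.964), and its correlation with Socs3 over the same 8 means was 0.652, with Socs1 0.868 and with Ptpn2 0.866. Stat5b went with Cobl, Arhgap5 and Tecr (0.958 to 0.988), Socs1 with Ankrd13c, Clic4 and Heca (0.980 to 0.992), and Socs2 with Ltbp3, Mark3 and Sco2 (0.906 to 0.919). Cish went with Runx1, Ist1 and Actn1 (0.964 to 0.969), and Ptpn2 with Slfn5, Vezt and Trafd1 (0.957 to 0.965). These points are group means from the same 32 libraries, so they share library and depth. With 8577 genes to choose from and only 8 points, the highest correlations are large through the choice itself. Socs2, for which no difference was called, also reached 0.906 to 0.919, and shared regulation was not tested.

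**Figure D4:**
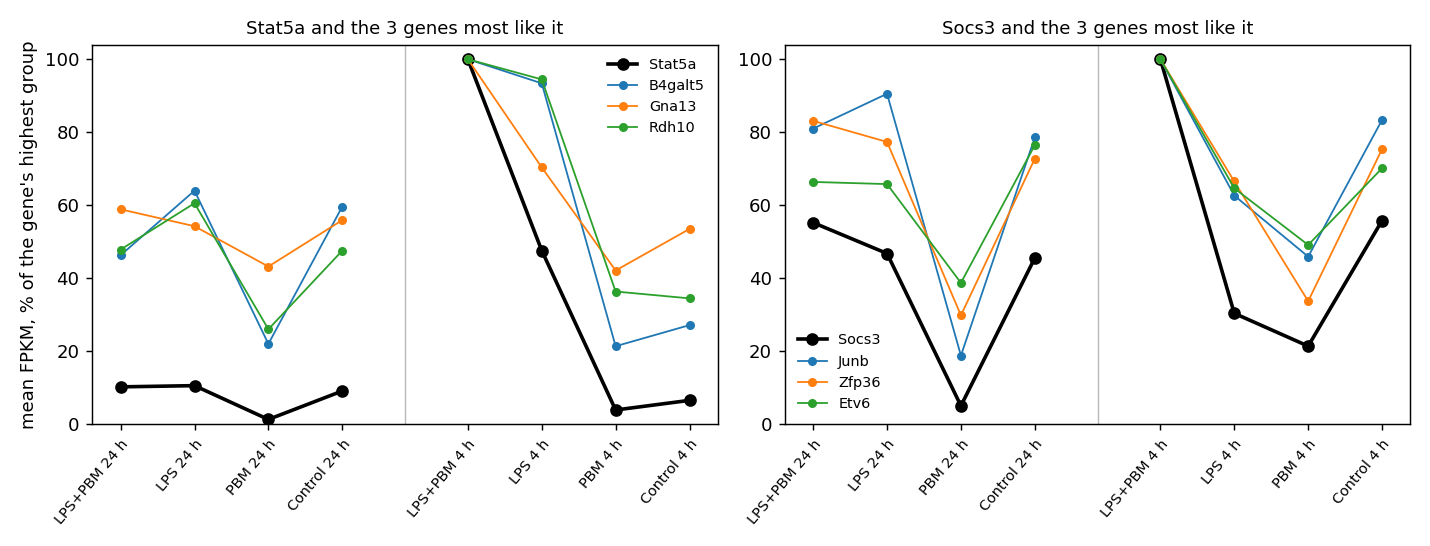
Group mean FPKM of Stat5a (left) and Socs3 (right), each with the 3 genes most like it, as a percentage of the gene's highest group mean, at 24 h and then 4 h. Junb and Socs3 are lowest in PBM at 24 h, at 35.5 and 2.80 FPKM.

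The groups can be ordered by each member's mean, but no neighbours in any of the 7 orders were free of overlap. Stat5a ran from LPS+PBM at 4 h (38.0 ± 12.6 FPKM) to PBM at 24 h (0.485 ± 0.97 FPKM), and Socs3 from LPS+PBM at 4 h (55.9 ± 18.9 FPKM) to PBM at 24 h (2.80 ± 2.35 FPKM). Cish had the same ends, at 21.2 ± 7.82 FPKM and 2.555 ± 2.95 FPKM. Socs1 ran from LPS+PBM at 4 h (11.9 ± 6.49 FPKM) to Control at 24 h (1.345 ± 2.69 FPKM), and Ptpn2 from LPS+PBM at 4 h (39.0 ± 12.3 FPKM) to Control at 4 h (8.31 ± 2.68 FPKM). Socs2 ran from LPS+PBM at 4 h (24.2 ± 12.3 FPKM) to LPS+PBM at 24 h (8.515 ± 7.26 FPKM). Stat5b alone had its highest mean in PBM, at 24 h (10.5 ± 0.76 FPKM), and its lowest in LPS+PBM at 24 h (4.27 ± 1.23 FPKM).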

How the data were processed

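Per the labels' protocols, total RNA was primed with oligo-dT, copied by template switching into full-length cDNA, and sequenced after PCR. No molecular barcodes are named, so intervals cover counting error only. The deposited gene table holds FPKM values with 2 decimals, which the authors scaled by transcript length and library size. The submitters' processing notes name fastp 0.18.0, Bowtie2 2.2.8, HISAT2, StringTie 1.3.1, RSEM and the build mm10; neither the tool behind the FPKM nor the strand used in counting is stated in the sources used here.

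Since only FPKM values were available, the test was limma 3.58.1 (R 4.3.3) on log2(FPKM + 1) across all genes, with an intensity trend and robust variances. A gene was tested if its mean reached 1 FPKM in any fitted group. Comparisons within a time used the 16 libraries of that time in 1 fit, and comparisons between times used all 32. Adjustment was by Benjamini and Hochberg over all tested genes, and a gene was called at an adjusted p under 0.05. Single members were also compared by two-sided exact permutation (70 splits). Fold changes of low genes depend on the added 1 and can lie above or below the ratio of means.

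Fragments per library were inferred, after the data were seen, from the FPKM steps of 4310 single-transcript genes, where 92.3% of 23533 values of up to 20 fragments were whole within 0.05. The scripts were tested on simulated data, in which the changed genes had more fragments than most of the 7 members. That run therefore does not give error rates for genes as low as these. The 7 members, the 6 pathway lists and the 8 marker lists were chosen with earlier results of these data known. Genes named were the 7 members, up to 4 called genes of each pathway list, and the 3 genes most like each member. One called gene of a pathway list is not reported here.

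Replicate numbers recur in all groups, and the main fit has no block for them. Alternatives were a pseudocount of 0.1 FPKM, no filter or a stricter one, quantile normalization, other libraries in the fit, a replicate block, library weights, leaving out each library, and summed Stat5a and Stat5b. A run without the 6 libraries at the end of the table, limma-voom on approximate fragments, and the permutation of light labels were added after the data were seen.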

Additional observations from a re-analysis of the deposited data

Results flagged for a closer look

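The permutation of light labels within each LPS state flagged Socs3 at 4 h (exact permutation p = 0.000408) and at 24 h (exact permutation p = 0.00857). Its null is no light effect in either LPS state, so it cannot show that the light effects with and without LPS differ. At 24 h the light difference of Socs3 was 4.73 FPKM with LPS and -22.7 FPKM without. Stat5b was flagged by the same test at 24 h (exact permutation p = 0.0486). All 3 p-values were unadjusted among 14 tests, and the limma interaction passed for none of them.

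In 10 of 56 groups 1 library stood far from the other 3. Its gap, as a share of the whole range, exceeded Dixon's 95% critical value for 4 samples. That value flags about 1 in 20 groups of normally distributed values, a rate that does not hold for a few fragments. A group with 3 libraries at 0 and 1 above 0 always has a gap of 1.0. The number of flags therefore cannot decide whether outlying libraries were in excess. The highest library stood apart for Stat5a in PBM at 24 h (1.94 FPKM with the others at 0, gap 1.0 of the range) and in PBM at 4 h (5.87 FPKM with the others at 0, gap 1.0). The same held for Socs1 in PBM at 24 h (7.89 FPKM with the others at 0, gap 1.0) and in Control at 24 h (5.38 FPKM with the others at 0, gap 1.0). Cish in PBM at 4 h had 33.0 FPKM in 1 library and 2.71 to 7.61 FPKM in the others (gap 0.838), and Ptpn2 in LPS at 24 h had 53.5 FPKM and 19.3 to 21.3 FPKM (gap 0.940). The lowest library stood apart for Stat5a in Control at 24 h (1.95 FPKM, gap 0.836), Socs1 in LPS at 4 h (5.32 FPKM, gap 0.852), Socs3 in LPS at 24 h (14.1 FPKM, gap 0.846) and Ptpn2 in Control at 24 h (5.73 FPKM, gap 0.853). For Stat5a and Socs1 these 6 gaps are 1 to 3 inferred fragments.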

How the results depend on the processing

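Of 287 recomputed counts of called members, 272 kept the main count and 15 moved. In LPS against Control at 4 h the count was 0 without the 6 last-listed libraries, and 0 to 1 leaving out each library. In LPS+PBM against PBM at 4 h it was 1 with a pseudocount of 0.1 and with only the groups compared, and 1 to 2 leaving out each library. In PBM against Control at 24 h it was 0 under the same 2 settings, and 0 to 1 leaving out each library. In LPS+PBM against PBM at 24 h it was 2 with limma-voom, which added Cish (adjusted p = 0.0494). In LPS+PBM at 24 h against 4 h it was 0 with a pseudocount of 0.1 (Stat5a adjusted p = 0.0611) and without the last-listed libraries, and in PBM at 24 h against 4 h it was 0 to 1 leaving out each library. Of 529 recomputed member fold changes 1 reversed, Stat5a in PBM against Control at 24 h, at 0.14 for Stat5a and Stat5b summed. The cause of these changes was not tested. Residuals over 8990 genes correlated at -0.0249 to 0.0382 for libraries with the same replicate number (112 pairs). For different numbers they correlated at -0.0472 to 0.043 (336 pairs). Counting error at this depth pulls such correlations towards 0, so they cannot decide whether the numbers pair the libraries. With the replicate block no member count changed, and the interaction at 24 h called 4 genes in place of 7. Counts of all called genes moved by over 1.5 times in 35 of 287 cases. Without the 6 last-listed libraries they were 159 in place of 340 (LPS against Control) and 180 in place of 359 (LPS+PBM against PBM) at 24 h, 9 in place of 15 (PBM against Control, 24 h), 258 in place of 420, 88 in place of 186 (24 h against 4 h in LPS+PBM and LPS), 42 in place of 86 (LPS effect by time) and 1 for each interaction. With only the groups compared they were 264 (LPS+PBM), 110 (LPS), 44 in place of 147 (PBM) and 38 in place of 155 (Control) between the times, 52 for the LPS effect by time, and 7 at 24 h and 2 at 4 h in PBM against Control. LPS+PBM against LPS called 0 to 5 genes at 24 h and 0 to 13 at 4 h over all alternatives, limma-voom called 282 in LPS between the times and 2 in PBM against Control at 4 h. A member's change that misses the threshold is not shown to be absent.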
